A study of Rattus norvegicus with 6 samples.

Results

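The genes described here encode myosin light chains and the kinases that phosphorylate them. They were taken from the deposited gene table by symbol, and 8 of the 9 listed genes had a row under their symbol (Myl1, Myl2, Myl3, Myl4, Myl7, Myl9, Mylk and Mylk3), out of 21648 genes in all. Myl6 was not analysed here. All 8 passed the filter on low counts. The data are RNA sequencing counts from neonatal rat ventricular myocytes (NRVM), heart muscle cells in primary culture. They were isolated from wild-type rat pups at postnatal day 3. The tested cultures received 10 µM of compound 915 for 72 h, an agonist of estrogen-related receptors per the submitters' design text, and the controls received an equivalent volume of DMSO, the solvent, for 72 h. Each group held 3 libraries, called biological replicates in the labels. Whether they came from separate isolations is not stated, so the p-values reflect library-to-library spread that may be technical. Cultures of both groups were pre-plated for 90 min to remove fibroblasts, were seeded in medium with 10% serum and 100 µM bromodeoxyuridine, and after 2 days were moved to medium with insulin, transferrin and selenium. The rat strain is not given in the sources used here.

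Each myosin head carries a pair of light chains wrapped around its lever arm, an essential (alkali) and a regulatory one. In the heart, Myl3 and Myl2 encode the ventricular essential and regulatory forms, and Myl4 and Myl7 the atrial ones. Myl4 is also made in the embryonic ventricle and in fetal skeletal muscle. Phosphorylation of the regulatory chain by a calmodulin-dependent kinase tunes force in the heart and switches contraction on in smooth muscle. Mylk3 encodes the cardiac kinase, and Mylk the smooth muscle and non-muscle kinase that acts on the product of Myl9.

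The start sites of the essential light chain genes are shown because these genes changed in opposite directions. RefSeq gives windows of 300 bases, 250 before and 50 from the start site, in build GRCr8, whereas the counts were made on Rnor_6.0. Windows matched 6 of the 8 genes, and Myl2 and Myl9 had none. Capitals mark a CArG box (bound by serum response factor), a MEF2 element (bound by myocyte enhancer factors) or CATTCC (the core of the M-CAT element). AAGGTCA, the core of the site of estrogen-related receptors, was searched as well, all on both strands. The Myl3 window lies at chr8:119616844-119617143 on the plus strand and the Myl4 window at chr10:89975900-89976199 on the plus strand. Myl1 has an upstream window at chr9:75907647-75907946 and a downstream window at chr9:75897750-75898049, both on the minus strand, since its gene makes a long and a short skeletal light chain from separate start sites.
Myl3: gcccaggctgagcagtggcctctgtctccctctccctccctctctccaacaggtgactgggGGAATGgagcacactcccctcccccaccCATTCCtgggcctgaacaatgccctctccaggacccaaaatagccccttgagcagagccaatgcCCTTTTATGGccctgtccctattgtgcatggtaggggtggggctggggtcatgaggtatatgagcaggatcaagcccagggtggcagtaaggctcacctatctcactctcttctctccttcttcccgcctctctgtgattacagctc
Myl4: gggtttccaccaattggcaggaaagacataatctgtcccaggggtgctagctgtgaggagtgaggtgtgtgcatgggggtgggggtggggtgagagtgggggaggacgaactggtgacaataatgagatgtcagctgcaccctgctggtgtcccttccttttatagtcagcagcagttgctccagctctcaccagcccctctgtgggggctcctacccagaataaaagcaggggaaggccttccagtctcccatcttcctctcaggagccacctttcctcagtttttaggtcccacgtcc
Myl1 upstream: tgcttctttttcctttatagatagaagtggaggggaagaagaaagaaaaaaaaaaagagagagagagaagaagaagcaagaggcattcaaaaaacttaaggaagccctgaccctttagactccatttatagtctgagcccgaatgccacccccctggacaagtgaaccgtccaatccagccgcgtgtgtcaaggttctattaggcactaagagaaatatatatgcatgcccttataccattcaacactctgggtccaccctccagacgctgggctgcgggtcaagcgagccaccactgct
Myl1 downstream: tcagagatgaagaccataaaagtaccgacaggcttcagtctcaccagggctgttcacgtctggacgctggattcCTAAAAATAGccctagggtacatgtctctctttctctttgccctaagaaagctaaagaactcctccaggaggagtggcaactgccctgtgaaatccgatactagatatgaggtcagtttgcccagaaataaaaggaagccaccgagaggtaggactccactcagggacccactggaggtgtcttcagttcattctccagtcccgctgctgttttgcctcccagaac
The Myl3 window held a CArG box from 97 to 88 bases before the start, and CATTCC from 161 to 156 bases before it and, on the other strand, from 189 to 184. The downstream Myl1 window held a MEF2 element from 176 to 167 bases before the start. No match was found in the Myl4 window, whose start lies 26417 bases inside the gene's RefSeq span, or in the upstream Myl1 window. Of the windows not printed, that of Mylk held CATTCC from 36 to 31 bases before the start. That of Mylk3 held it on the other strand, from 41 to 36, and that of Myl7 held no match. AAGGTCA was in none of the 7 windows of the 6 genes, which says only that these letters are not there. The windows of Myl7, Mylk and Mylk3 also start inside the RefSeq span of their genes, by 549, 36876 and 23697 bases, so that other start sites of these genes were not searched. The share of all 33469 windows in the table that hold a match was 4.61% for AAGGTCA, 1.64% for the CArG box, 3.29% for the MEF2 element and 14.2% for CATTCC.

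With 915, transcripts of the ventricular light chains Myl3 and Myl2 were higher, and those of the atrial forms Myl4 and Myl7, the smooth muscle form Myl9, the skeletal form Myl1 and the kinase Mylk were lower. The cardiac kinase gene Mylk3 did not pass the test. Thus 2 of the 8 genes rose and 5 fell at an adjusted p under 0.05 in edgeR's quasi-likelihood test, where 24.3% of the 14253 genes tested rose, 25.5% fell and 49.8% were called in either direction. The median log2 fold change of the 8 genes was −0.66, beside −0.01 over all genes tested. In 7 of the 8 genes the libraries of the groups did not overlap, as in 56.7% of all genes tested. In 2 genes the 915 libraries were above (23.9% of all genes) and in 5 below (32.8%). Levels are the authors' CPM, counts scaled to the same total in every library. They are not scaled by length and are compared here between groups, not between genes. Fold changes are from edgeR, which scales the libraries further, so they differ somewhat from ratios of mean CPM.

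**Figure D1:**
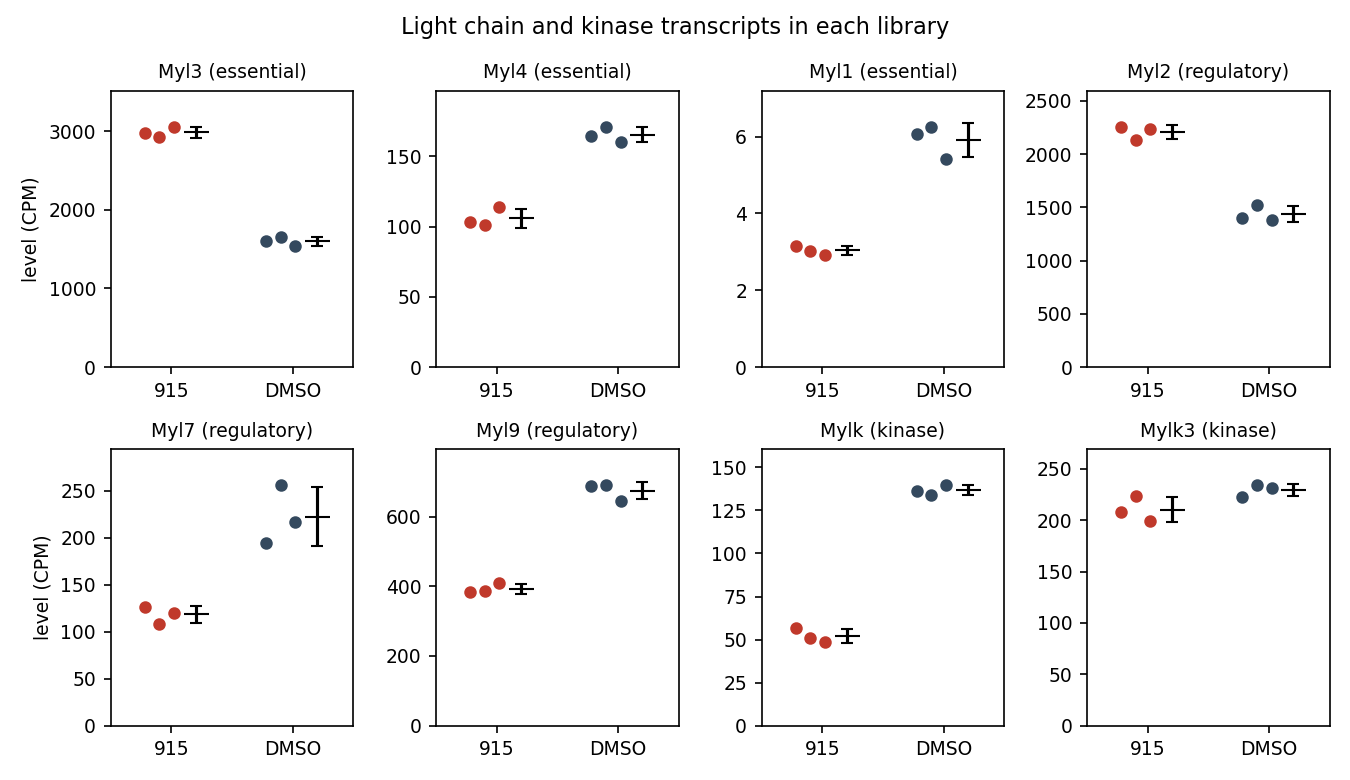
Level in CPM (vertical axes, from 0) of the 8 genes in each of the 3 libraries with 915 and the 3 with DMSO. Points are libraries, and bars show mean and SD. The groups are apart for every gene but Mylk3, and only Myl3 and Myl2 are higher with 915.

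Among the essential chains, Myl3 (ENSRNOG00000020955), the ventricular form, had 2973, 2926 and 3058 CPM in 915 libraries 1 to 3, against 1604, 1654 and 1544 CPM in DMSO libraries 1 to 3. Every 915 library was above every DMSO library, by far more than libraries of a group differed. The mean was 2986 ± 67.0 CPM with 915 and 1601 ± 55.4 CPM with DMSO (SD, n = 3 each). The rise in edgeR was 1.93-fold, or 0.95 ± 0.0467 on the log2 scale (SE, edgeR adjusted p = 1.05e-09).
Myl4 (ENSRNOG00000050675), the atrial and embryonic form, had 103, 101 and 114 CPM in 915 libraries 1 to 3, against 165, 171 and 160 CPM in DMSO libraries 1 to 3. Here every 915 library was below every DMSO library. The log2 fold change was −0.59 ± 0.0560 (SE, edgeR adjusted p = 8.51e-07), so that Myl4 was 1.51-fold lower.
Myl1 (ENSRNOG00000013262) encodes the alkali light chains of fast skeletal muscle and was scarce, with 3.17, 3.03 and 2.93 CPM in 915 libraries 1 to 3, against 6.07, 6.26 and 5.42 CPM in DMSO libraries 1 to 3. These levels rest on 99 to 121 counts per 915 library and 214 to 261 per DMSO library. It was lower in each 915 library than in each DMSO library, and 1.88-fold lower in edgeR (log2 fold change −0.91 ± 0.137, SE, edgeR adjusted p = 7.62e-05). The count is per gene, so the products of its separate start sites were not told apart.

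Among the regulatory chains, Myl2 (ENSRNOG00000030848), the ventricular form and the substrate of the cardiac kinase, had 2259, 2131 and 2232 CPM in 915 libraries 1 to 3, against 1405, 1526 and 1386 CPM in DMSO libraries 1 to 3. The groups did not overlap. The mean was 2208 ± 67.3 CPM with 915 and 1439 ± 76.4 CPM with DMSO (SD, n = 3 each). The rise in edgeR was 1.59-fold (log2 fold change 0.67 ± 0.0513, SE, edgeR adjusted p = 1.03e-07).
Myl7 (ENSRNOG00000014409), the atrial form, had 126, 109 and 120 CPM in 915 libraries 1 to 3, against 194, 256 and 217 CPM in DMSO libraries 1 to 3. The DMSO libraries varied most for this gene, with a coefficient of variation of 14.1%, yet the lowest of them was above the highest 915 library. Myl7 was 1.82-fold lower (log2 fold change −0.86 ± 0.0875, SE, edgeR adjusted p = 1.73e-06).
Myl9 (ENSRNOG00000020246), the form of smooth muscle and non-muscle cells, had 382, 387 and 409 CPM in 915 libraries 1 to 3, against 687, 690 and 646 CPM in DMSO libraries 1 to 3. Again no 915 library reached a DMSO library. The fall was 1.66-fold (log2 fold change −0.73 ± 0.0483, SE, edgeR adjusted p = 2.02e-08).

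The kinase genes differed from each other. Mylk (ENSRNOG00000002215), for the smooth muscle and non-muscle kinase, had 56.6, 50.9 and 48.7 CPM in 915 libraries 1 to 3, against 136, 134 and 140 CPM in DMSO libraries 1 to 3. Its log2 fold change, −1.34 ± 0.0592 (SE, edgeR adjusted p = 3.61e-10), was the largest in size among the 8 genes. Mylk3 (ENSRNOG00000017546), for the cardiac kinase, had 208, 223 and 199 CPM in 915 libraries 1 to 3, against 223, 234 and 231 CPM in DMSO libraries 1 to 3. The groups overlapped, and the difference of −0.08 ± 0.0516 (SE) on the log2 scale did not pass (edgeR adjusted p = 0.231), which does not show that the gene was unaffected. The change of the Mylk to Mylk3 ratio was −1.27 ± 0.0937 on the log2 scale (SE, n = 3 each). Its exact permutation p was 0.1, the smallest that 3 against 3 libraries allow. In limma on log ratios, fitted for every gene against Mylk3, the adjusted p was 3.05e-04 without a variance trend, and 37% of all genes changed relative to Mylk3. The planned fit with a trend set the prior degrees of freedom to infinity for this ratio, which makes its p too small to use.

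Because the scaling between libraries cancels in a ratio of transcripts of the same library, the atrial and ventricular forms were also compared that way. The Myl7 to Myl2 ratio was 2.87-fold lower with 915, a change of −1.52 ± 0.0733 on the log2 scale (SE, limma adjusted p = 1.66e-10). The Myl4 to Myl3 ratio was 2.91-fold lower, a change of −1.54 ± 0.0509 (SE, limma adjusted p = 3.01e-11). Both atrial forms therefore fell against their ventricular counterparts, in 3 of 3 libraries with 915 relative to each DMSO library. Relative to Myl2 85.6% of all genes tested changed, and relative to Myl3 93.5%, in the same fits, so a changed ratio to these genes was common. The ratio of the smooth muscle form Myl9 to Myl2 changed by −1.40 ± 0.0577 (SE, limma adjusted p = 3.59e-11), and that of the skeletal form Myl1 to Myl3 by −1.85 ± 0.136 (SE, limma adjusted p = 2.26e-08). Without a variance trend the limma adjusted p was larger, at 8.07e-05 for Myl7 to Myl2 and 1.46e-05 for Myl4 to Myl3. It was 5.13e-05 for Myl9 to Myl2 and 1.47e-05 for Myl1 to Myl3. For each of these 4 ratios the exact two-sided permutation test gave p = 0.1, its lower limit here.
Genes that moved the same way did not all move equally, in 3 further ratios chosen after their values were seen. Myl2 rose less than Myl3, their ratio changing by −0.28 ± 0.0463 (SE, limma adjusted p = 5.99e-05, or 2.89e-03 without the trend). Of all genes tested 93.5% changed relative to Myl3. Mylk fell more than Myl9, its ratio changing by −0.62 ± 0.0787 (SE, limma adjusted p = 2.93e-06, or 1.57e-03 without the trend). Here 80.4% of genes changed relative to Myl9. The exact permutation test gave p = 0.1 for the Myl2 to Myl3 ratio and for the Mylk to Myl9 ratio. For the atrial pair Myl4 and Myl7 the ratio had a difference of 0.26 ± 0.17 (SE) and did not pass (limma adjusted p = 0.175 without the trend, which again gave infinite prior degrees of freedom). Relative to Myl7 80.6% of genes changed in that fit. Without DMSO library 1 the value was 0.35 (limma adjusted p = 0.0703 without the trend, or 0.0200 with it).

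**Figure D2:**
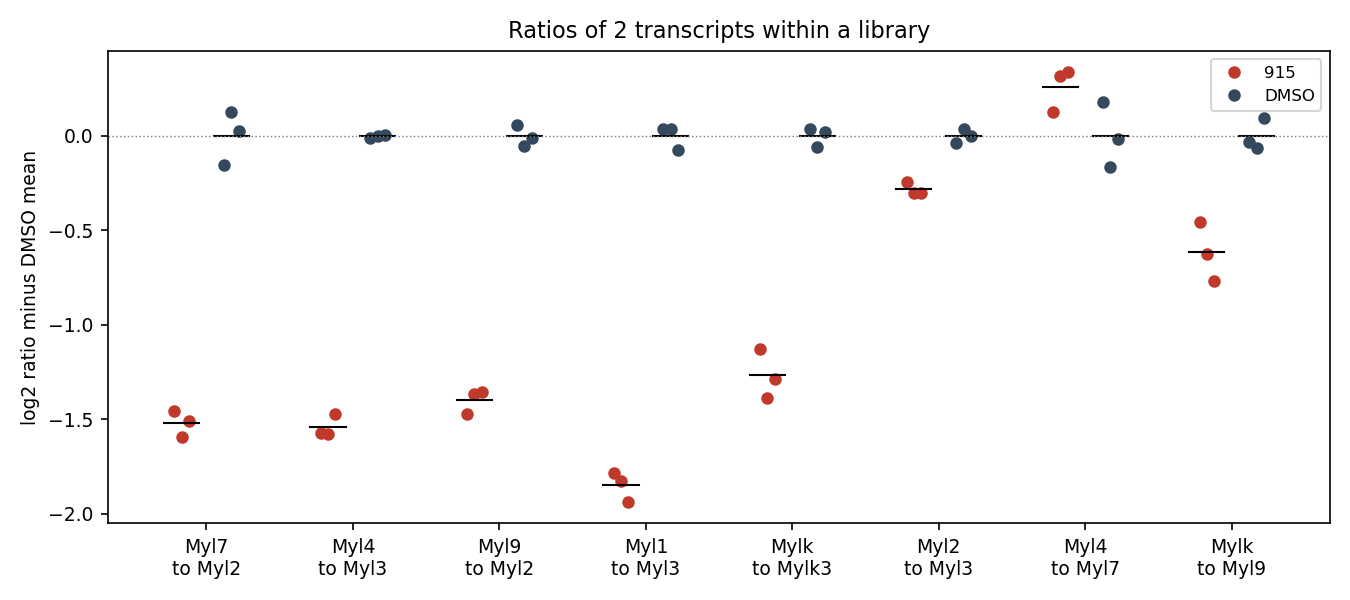
Log2 ratio of the CPM of 2 genes in the same library, less the mean ratio of the DMSO libraries (vertical axis). Points are the 3 libraries with 915 and the 3 with DMSO, and lines are group means. The ratios with Myl2 or Myl3 below and an atrial, smooth muscle or skeletal form above changed by −1.85 to −1.40 with 915, while the groups overlap for Myl4 to Myl7.

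Within the summed counts of Myl2, Myl7 and Myl9, the Myl2 share was 81.6%, 81.1% and 80.8% in 915 libraries 1 to 3, against 61.5%, 61.7% and 61.6% in DMSO libraries 1 to 3. The Myl9 share was 14.5% ± 0.557 with 915 and 28.9% ± 1.08 with DMSO, and the Myl7 share 4.36% ± 0.216 and 9.50% ± 0.945 (SD, n = 3 each). Among Myl1, Myl3 and Myl4, the Myl3 share was 96.5% ± 0.134 with 915 and 90.3% ± 0.0447 with DMSO, and the Myl4 share 3.43% ± 0.139 and 9.34% ± 0.0547 (SD, n = 3 each). The exact permutation p was 0.1 for each of these shares. The sums leave out the regulatory chains Myl12a and Myl12b and the essential chain Myl6, among others. The shares are therefore not of all regulatory or essential counts. Shares are of counts and not of molecules, since long transcripts give more reads, so only their difference between groups is read here.

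**Figure D3:**
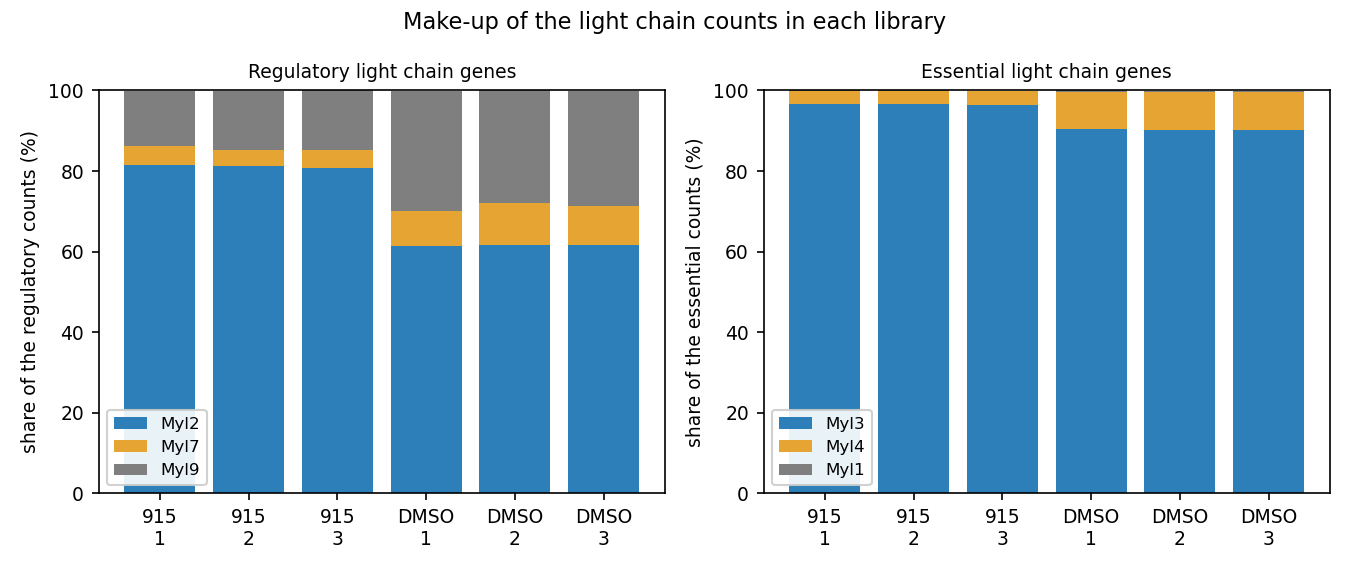
Share of the summed counts (vertical axes, percent) held by each regulatory gene (left) and each essential gene (right) in each library. Myl2 holds 80.8% to 81.6% of the Myl2, Myl7 and Myl9 counts with 915 and 61.5% to 61.7% with DMSO. Myl3 holds 96.5% and 90.3% of the Myl1, Myl3 and Myl4 counts on average. Other light chain genes are not in the sums.

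Of the other light chain genes, 4 of 6 listed were tested, of which 1 rose and 1 fell, beside 49.8% of all genes tested called in either direction. Myl10, a little studied regulatory chain gene, rose 1.72-fold at a low level (3.62 ± 0.354 CPM with 915 and 2.18 ± 0.156 CPM with DMSO, SD, n = 3 each, edgeR adjusted p = 1.48e-03). Myl12b, a non-muscle regulatory chain, fell 1.29-fold in edgeR (127 ± 9.93 CPM with 915 and 170 ± 9.47 CPM with DMSO, SD, n = 3 each, edgeR adjusted p = 1.67e-04). Its near-identical relative Myl12a, at 640 ± 12.6 CPM with 915 and 654 ± 7.79 CPM with DMSO (SD, n = 3 each), did not pass (edgeR adjusted p = 0.781). Reads could be shared between these copies, so their separate values are uncertain. Mylpf, the regulatory partner of the Myl1 product in fast skeletal muscle, had 6.55 ± 0.378 CPM with 915 and 6.59 ± 1.13 CPM with DMSO (SD, n = 3 each, edgeR adjusted p = 0.815).

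The genes that control light chain phosphorylation changed in both directions. Of 19 listed genes 14 were tested, of which 4 rose, 7 fell and 3 were not called, with a median log2 fold change of −0.23. Over all genes tested 49.8% were called and the median was −0.01. Among the parts of myosin phosphatase, which removes the phosphate, the catalytic subunit gene Ppp1cb rose 1.24-fold (edgeR adjusted p = 6.15e-05). The targeting subunit gene Ppp1r12a had 126 ± 15.1 CPM with 915 and 142 ± 17.1 CPM with DMSO (SD, n = 3 each) and was not called. Of the genes for phosphatase inhibitors, Ppp1r14a, whose product CPI-17 is typical of smooth muscle, fell 2.05-fold (14.4 ± 2.13 CPM with 915 and 30.6 ± 1.84 CPM with DMSO, SD, n = 3 each). Its relatives Ppp1r14b and Ppp1r14c rose 1.29-fold and 1.20-fold. The calmodulin genes Calm2 and Calm3, which supply the calcium sensor of the kinases, fell 1.26-fold and 1.36-fold. Among other kinases that can act on regulatory chains, Pak1 fell 2.28-fold and Cdc42bpa 1.43-fold, and Dapk3 rose 1.19-fold. Mylk2, the skeletal muscle kinase, was under the filter, with at most 0.279 CPM in any library.

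Light chains are built into myosin together with heavy chains, and all 9 heavy chain genes tested of 12 listed were called, 4 higher and 5 lower. Of all genes tested 49.8% were called. The cardiac genes Myh6 and Myh7 rose 1.76-fold and 1.31-fold, and so did Myh7b and the non-muscle gene Myh14, 1.40-fold and 1.56-fold. Lower were 2 other non-muscle genes, Myh10 and Myh9, by 1.49-fold and 1.70-fold, and the developmental and fast skeletal genes Myh3, Myh2 and Myh8. Myh3, the embryonic form, had 2.29 ± 0.239 CPM with 915 and 21.3 ± 1.96 CPM with DMSO (SD, n = 3 each), a log2 fold change of −3.17 ± 0.118 (SE; adjusted p of 7.10e-11 in edgeR). Myh2 had 0.982 ± 0.424 CPM with 915 and 5.02 ± 0.540 CPM with DMSO (SD, n = 3 each). Myh8, the perinatal form, was detected in 1 of the 3 libraries with 915, at 0.105 CPM, against 1.97 to 2.26 CPM in the DMSO libraries. Myh11, the smooth muscle heavy chain, was not analysed here.

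Markers of the cell types that use these forms moved in the same libraries. For the counts below, 24.3% of all genes tested were called higher and 25.5% lower. The summed level of 9 cardiac myocyte markers was 22915 to 23198 CPM in the 915 libraries, against 16315 to 17495 CPM in the DMSO libraries, with 8 of 9 higher and 0 lower. Of 10 tested smooth muscle markers 7 were lower, 1 higher and 2 not called. Their summed levels were 1052 to 1101 CPM with 915 and 2383 to 2599 CPM with DMSO. Tagln, the most abundant of the 10, weighed most in this sum (362 ± 16.6 CPM with 915 and 1209 ± 67.4 CPM with DMSO, SD, n = 3 each). Actg2, the enteric smooth muscle actin gene, Tagln and Cnn1 were 5.12-fold, 3.23-fold and 2.92-fold lower. The higher one, Synpo2, was not called without 915 library 1 or DMSO library 1, with the replicate block, or with the authors' totals. Of 9 fibroblast markers 6 were lower and 2 higher, summing to 11228 to 11874 CPM with 915 and 21211 to 22091 CPM with DMSO. The difference in the sum lay in 2 collagen genes, Col1a1 and Col3a1 (together 8697 to 9365 CPM with 915 and 18758 to 19579 CPM with DMSO). The other 7 markers summed to 2382 to 2531 CPM with 915 and 2453 to 2512 CPM with DMSO, ranges that overlap. That sum hides changes of single genes. Thy1, Ddr2, Lum and Tcf21 were lower, by 5.54-fold, 1.46-fold, 1.44-fold and 1.34-fold. Dcn and Pdgfra were higher, by 1.40-fold and 1.22-fold, and Postn, the most abundant of the 7, was not called. Of 8 macrophage markers 4 fell and 0 rose (118 to 143 CPM with 915 and 222 to 240 CPM with DMSO in sum), and of 7 endothelial markers 4 fell and 1 rose (54.4 to 55.4 CPM and 70.0 to 72.4 CPM in sum). No matched marker of these lists was at 0 in all libraries. In bulk RNA, fewer cells of a type and less RNA per cell cannot be told apart, and the part of these cell types in the values of Myl2, Myl3, Myl9 and Mylk was not tested.

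The other markers of heart chambers were called about as often as all genes (49.8%), in both directions. Of 11 tested atrial markers 4 were lower, 2 higher and 5 not called, with a median log2 fold change of 0.02. Nr2f2 and Nr2f1, transcription factor genes of atrial identity, fell 2.25-fold and 1.70-fold, and Sln, for the atrial calcium pump inhibitor, 1.62-fold, whereas Nppa, for the atrial natriuretic peptide, rose 1.47-fold. Of 8 ventricular markers 3 were higher, 1 was lower and 4 were not called, with a median of 0.01. Among the 3 higher is Myh7, already given above with the heavy chains. The connexin gene Gja1 and Kcnip2, for a potassium channel subunit, rose 2.00-fold and 12.5-fold. Kcnip2 was scarce, with 2.19 ± 0.210 CPM with 915 and 0.178 ± 0.0299 CPM with DMSO (SD, n = 3 each). Irx4, the ventricular transcription factor gene, had 78.8 ± 2.49 CPM with 915 and 81.6 ± 5.24 CPM with DMSO (SD, n = 3 each) and did not pass (edgeR adjusted p = 0.985). The lower marker, Irx5 (edgeR adjusted p = 0.0497), was called neither without 915 library 1 or 2 nor without any 1 of the DMSO libraries. It was also not called with median-of-ratios scaling, DESeq2, no filter on low counts or the replicate block. Of 8 tested skeletal muscle markers 4 were lower and 2 higher. The 2 higher were Myod1 and Ckm, by 3.03-fold and 1.41-fold. The 4 lower were Myh2, Tnnt3, Tnnc2 and Tnni2, and 2 remained in number without 915 library 1 or 3 or without DMSO library 1 or 3. The skeletal regulator gene Pax7 had 0 CPM in every DMSO library and at most 0.0262 CPM with 915, and Myod1 had 0.790 ± 0.177 CPM with 915 and 0.266 ± 0.0675 CPM with DMSO (SD, n = 3 each). The part of skeletal or atrial cells in the values of Myl1, Myl4 and Myl7 was not tested.

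**Figure D4:**
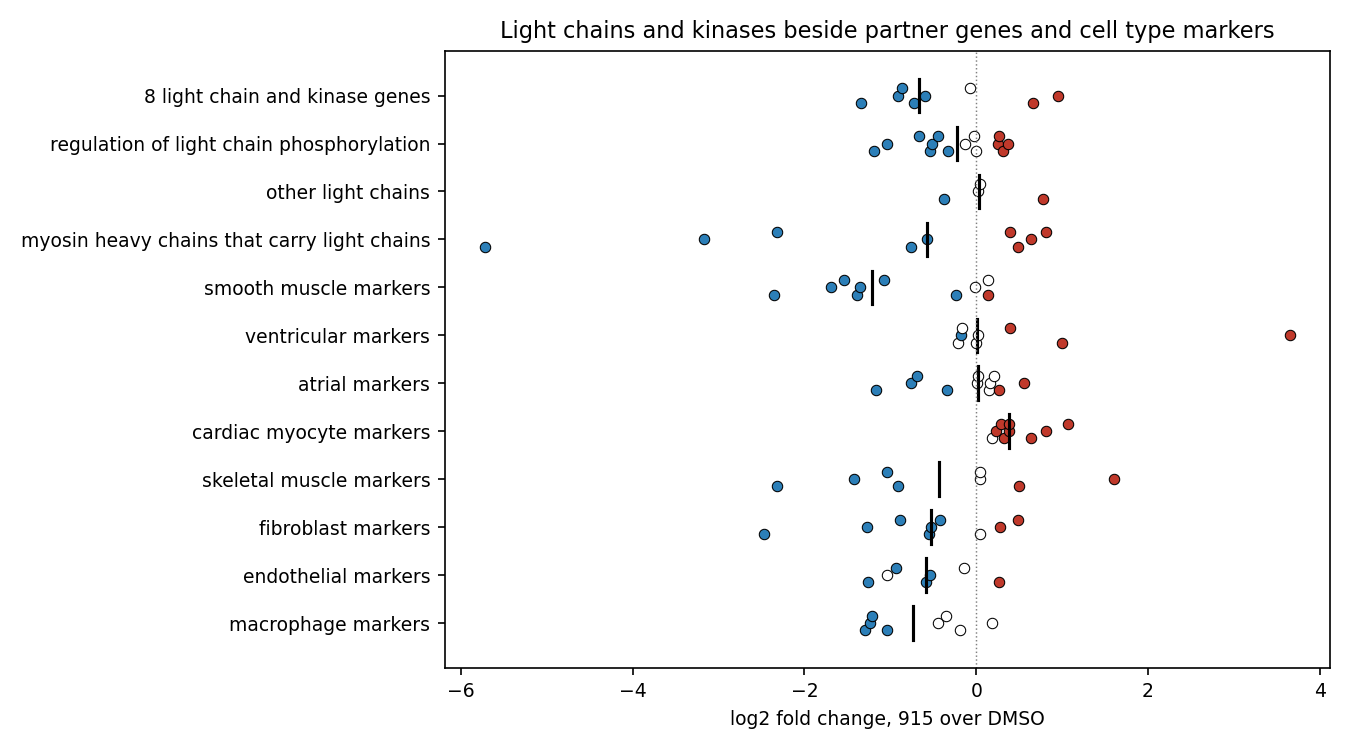
Log2 fold change, 915 over DMSO (horizontal axis), of the 8 genes and of the tested genes of each list. Points are genes, filled red where higher and blue where lower at an adjusted p under 0.05 and open where not called, and black lines are medians. The 8 genes lie between −1.34 and 0.95, while cardiac myocyte markers lie above 0 and 7 of 10 smooth muscle markers are lower.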

How the data were processed

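The submitters' processing notes name STAR 2.5.1a, featureCounts 1.4.6-p5 of Subread and build Rnor_6.0. How strand and multiply matching reads were handled is not given in the sources used here; overlapping genes and close copies may therefore exchange counts. The count table deposited by the authors held 22641 rows. Of these, 993 repeated an Ensembl identifier with the same counts and were dropped. The CPM values deposited by the authors are those counts scaled by a total for each library, 32709227 to 40652711 for 915 and 39513590 to 42975767 for DMSO. The table held 93.1% to 93.7% of these totals, and the limit that 0 counts allow, 3 counts, was 0.0698 to 0.0917 CPM. This covers counting error only, without molecular identifiers. No library copied another (chi-square per degree of freedom 5.45 to 11.6 within groups).

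The counts were fitted with edgeR 4.0.16 in R 4.3.3 (filterByExpr, TMM, quasi-likelihood test on group, two-sided, Benjamini-Hochberg over 14253 genes, threshold 0.05). The SE is the log2 fold change divided by the square root of F. Ratios were tested with limma 3.58.1 on log2 CPM (prior count 2), less that of the denominator gene, for every gene. Genes sharing a denominator share its deviations. DESeq2 1.42.0 was an alternative. Genes named beside the 8 were up to 4 per list and direction with the smallest p, others that act on a light chain, and some chosen after their values were seen (such as Irx5, Synpo2, Irx4, Pax7, Myod1 and Myh8). Some listed genes are not reported here by name. The genes and lists were chosen with earlier results of these data known.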

Additional observations from a re-analysis of the deposited data

How the results depend on the processing

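Every one of the 8 genes kept its direction and its side of the threshold under each alternative run: median-of-ratios scaling, the authors' totals without further scaling, DESeq2, no filter on low counts, the replicate block and leaving out each library in turn. In all of them 2 genes rose and 5 fell. Mylk3 came close to the threshold with the authors' totals (log2 fold change −0.13, edgeR adjusted p = 0.0517, against 0.231 in the reported fit). Over leave-one-out fits the log2 fold change was 0.92 to 0.98 for Myl3, 0.64 to 0.72 for Myl2, −0.65 to −0.56 for Myl4, −0.96 to −0.74 for Myl7, −0.76 to −0.71 for Myl9, −0.97 to −0.86 for Myl1, −1.41 to −1.30 for Mylk and −0.12 to −0.04 for Mylk3. The number of all genes called was 6071 to 7174. The median of all genes moved to −0.06 with the authors' totals, against −0.01 in the reported fit. The 5 planned ratios also kept direction and call, with adjusted p up to 2.54e-03 over their alternatives. The Myl2 share differed by 19.4 to 19.8 percentage points and the Myl3 share by 6.10 to 6.22 without single libraries. With the replicate block, 6193 genes were called. Same-numbered libraries did not deviate together (correlations of −0.03, −0.11 and −0.09), so no pairing by number was seen. This cannot exclude shared isolations, since the deviations were taken from group means of only 3 libraries. The block changed no call of the 8 genes. Counts of the ventricular, smooth muscle and skeletal marker lists moved as given with them; with the authors' totals 3 ventricular markers were lower. The Myl6 values, the Myl6 to Myl3 ratio and shares per transcript length were planned and not run, since no row or length was at hand. Myl1 rests on 99 to 261 counts per library, which limits its precision.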
